A study of Mus musculus with 12 samples.

Results

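Adpgk and the 4 hexokinase genes Hk1, Hk2, Hk3 and Hkdc1 were followed in RNA from MC38-idAdpgkG cells. They were chosen by symbol, as enzymes that phosphorylate glucose and, for Adpgk, as the gene from which the transgene of this line is made. All 5 were found among the 27179 gene entries of the count table. MC38 is a mouse colon carcinoma line from strain C57BL/6, and this derivative carries a stably transfected Adpgk construct that doxycycline switches on. The encoded protein has the change R304M, is fused to turboGFP and is degraded on addition of dTAG-13, a compound that recruits a tagged protein to a ubiquitin ligase. Not given in the sources used here were the promoter of the construct, its non-coding parts and whether the line is a single clone.

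All 4 groups received 20 ng/mL mouse interferon-gamma for 51 h, the control group included. The control group had nothing else. The doxycycline group also had 1 µg/mL doxycycline for 51 h. The dTAG-13 group had 1 µM dTAG-13 in the last 3 h, after 48 h of interferon-gamma. The doxycycline plus dTAG-13 group had both compounds on the same schedule. Each group had 3 libraries, which the labels call technical triplicates of a single biological sample, so every SD, SE and p-value below describes the spread between libraries of 1 culture. The whole set has 12 libraries of 22165538 to 32809573 counts. In pairs of libraries of 1 group, the chi-square of the counts per degree of freedom was 8.45 and 8.80 for the pairs that hold doxycycline plus dTAG-13 replicate 3, and 2.43 to 5.74 for the other 10 pairs. That library therefore stood furthest apart, and no pair agreed within sampling noise. Pairs with replicate 3 were also wider in 2 other groups. In control they were at 4.68 and 4.48, against 2.46 for replicates 1 and 2. With doxycycline they were at 5.74 and 5.05, against 2.43. The dTAG-13 pairs were all at 3.08 to 3.34. Of the 8 epithelial markers checked, Epcam and Cdx2 had no read in any library and the summed level of all 8 was 0.0628 to 0.712 CPM, so defining markers of colon epithelium were at or near 0. Of the 5 mesenchymal markers, Vim was at 1006 to 1523 CPM and Pdgfrb at 4.41 to 8.49 CPM, while Col1a1, Col1a2 and Acta2 had means of 0.0694, 0.152 and 0.0538 CPM. The leukocyte markers summed to 0.345 to 1.47 CPM, with Cd3e at 0 and Ptprc at 3 reads in all. Most of that sum was Lyz2, with a mean of 0.856 CPM and 303 reads in all. The 3 endothelial markers summed to 1.92 to 4.15 CPM. Of these Pecam1 had a mean of 2.94 CPM, Cdh5 0.239 and Kdr 0.055.

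Glucose that enters a cell is trapped by transfer of a phosphate, and the product, glucose-6-phosphate, feeds glycolysis, the pentose phosphate pathway and glycogen synthesis. Hexokinases take that phosphate from ATP. Hk1 is the broadly expressed form and Hk2 the form induced by insulin and low oxygen and abundant in many tumours, and both can bind the outer membrane of mitochondria. Hk3 is found mainly in blood cells and Hkdc1 mainly in epithelia. ADP-dependent glucokinase, the product of Adpgk, takes the phosphate from ADP, lies at the endoplasmic reticulum and belongs to a different protein family. A mutated Adpgk peptide is a known neoantigen of MC38 cells.

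The change carried by the construct falls in the coding sequence of Adpgk (Entrez 72141, plus strand of GRCm38 chromosome 9, 59291572 to 59316200). Codon 304 is an arginine codon, AGG, at 59313822 to 59313824, in exon 6 of 7. The 60 bases of exon 6 at chr9:59313792-59313851, identical in the 2 protein-coding GENCODE M21 transcripts, are shown because they hold the altered codon, which is in capitals in its reference form.
Adpgk codon 304: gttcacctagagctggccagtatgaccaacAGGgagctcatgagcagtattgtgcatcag
The count table has 1 entry for Adpgk, so reads of the endogenous gene and of the construct are summed in it and this codon cannot be read from the counts.

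Adpgk was the member that doxycycline moved most. It had 161.9, 157.6 and 162.0 CPM (read counts normalised to library size) in the 3 control libraries. With doxycycline it had 1343, 1316 and 1355 CPM. The dTAG-13 libraries held 176.7, 182.4 and 184.9 CPM, and the libraries with both compounds 1378, 1351 and 1379 CPM. The groups with and without doxycycline were far apart, the dTAG-13 libraries lay above all control libraries, and the libraries with both compounds overlapped those with doxycycline alone. Per kilobase of the longest coding transcript (2484 bases), the level went from 64.6 ± 1.00 to 538.5 ± 8.10 CPM per kb (mean ± SD, n = 3). By that measure Adpgk was between places 1224 and 1278 of the genes with a known length in the control libraries and between places 67 and 70 with doxycycline. The transcribed length of the construct is unknown, so the level per kilobase and the place with doxycycline depend on the length used. By CPM alone, among all gene entries, its places were 1484, 1547 and 1503 in control and 42, 45 and 40 with doxycycline. Adpgk took 0.0155% of all reads in control and 0.133% with doxycycline.

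On the log2 scale doxycycline exceeded control by 3.06 (SE 0.0223, edgeR adjusted p after Benjamini-Hochberg 1.95e-50). In cells with dTAG-13 the doxycycline difference was 2.92 (SE 0.0221, edgeR adjusted p 9.11e-50). On the linear scale, doxycycline went with 1177 CPM more (SE 11.7) without dTAG-13 and with 1188 CPM more (SE 9.39) with it. dTAG-13 went with 20.8 CPM more (SE 2.81) in cells without doxycycline and with 31.6 CPM more (SE 14.7) in cells with it. The former was called, at a log2 difference of 0.176 (SE 0.0220, edgeR adjusted p 4.48e-09), where 62.1% of all genes tested were called. It became 0.268 when libraries were scaled by their totals alone, and 0.148 after a correction for length and GC content. Of the 1469 genes of 1993 to 2558 bases, like Adpgk in length, 65.2% lay below it. Their interquartile range was -0.12 to 0.25, so Adpgk lay within it. The dTAG-13 difference in cells with doxycycline was not called, at 0.034 (SE 0.0200, edgeR adjusted p 0.140). It was called at 0.055 when scaled by library totals alone and at 0.045 with only the groups compared in the fit. It was 0.021 after a correction for length and GC content, ran from 0.006 (without doxycycline replicate 2) to 0.042 when single libraries were left out, and was called in none of those. The interaction, the dTAG-13 difference with doxycycline minus that without, was -0.14 on the log2 scale (SE 0.0297, edgeR adjusted p 0.000412).

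**Figure D1:**
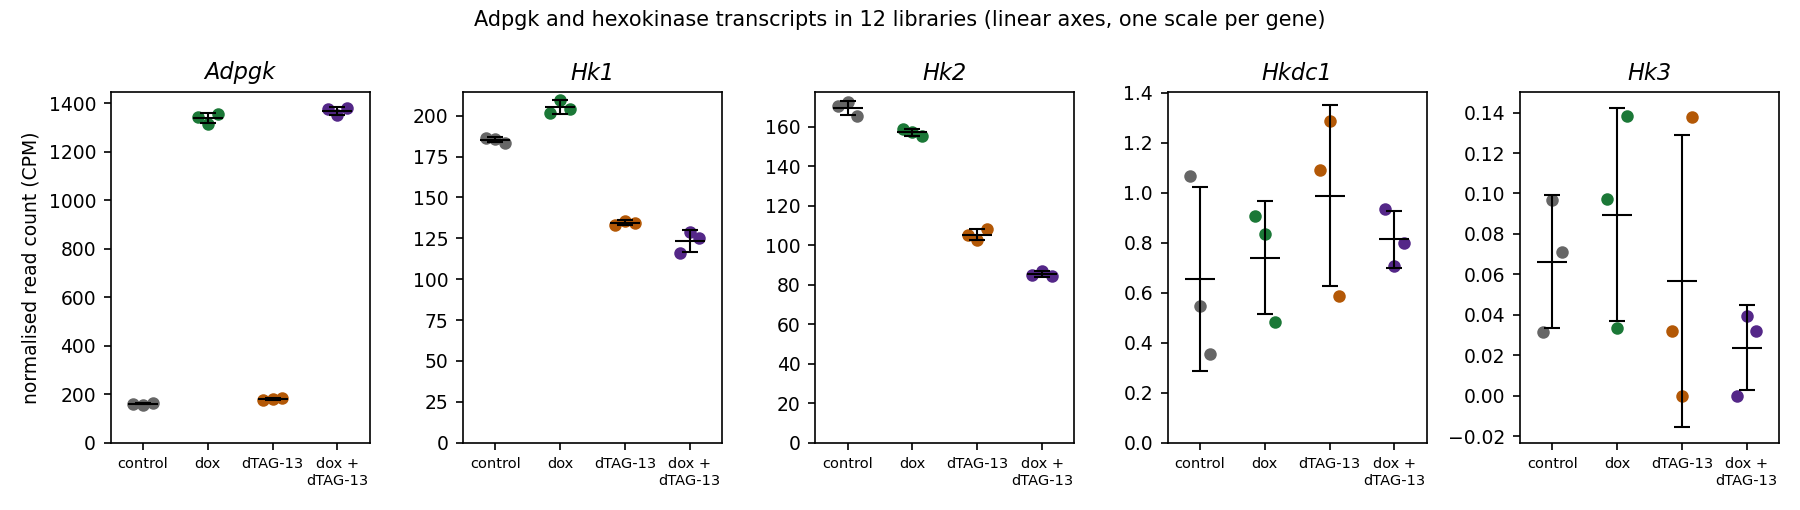
Normalised read counts (CPM, linear axes with 1 scale per gene) of the 5 genes in the 12 libraries, by group; points are libraries and the black marks are the mean ± SD over 3. Adpgk was at 157.6 to 184.9 CPM without doxycycline and at 1316 to 1379 CPM with it, Hk1 and Hk2 were lowest with both compounds, and Hkdc1 and Hk3 were at 1.29 CPM or lower.

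Hk1 and Hk2 were the hexokinases that these cells transcribed at a level that could be compared, and both were lower in the cells with dTAG-13. Hk1 (Entrez 15275, minus strand of chromosome 10, 62268855 to 62379920) had 186.4, 185.9 and 183.4 CPM in control. In the dTAG-13 libraries it had 132.9, 135.9 and 134.6 CPM. With doxycycline it had 201.4, 209.8 and 204.2 CPM, and with both compounds 116.2, 129.1 and 125.0 CPM. The doxycycline libraries were highest and those with both compounds lowest. Hk2 (Entrez 15277, minus strand of chromosome 6, 82725025 to 82774454) had 170.2, 172.6 and 165.6 CPM in control. It had 159.0, 157.1 and 155.2 CPM with doxycycline and 105.3, 102.7 and 108.2 CPM with dTAG-13. In the libraries with both compounds Hk2 was at 84.7, 87.1 and 84.2 CPM. From highest to lowest the order for Hk2 was control, doxycycline, dTAG-13 and both compounds. The summed level of the 5 mesenchymal markers, nearly all of it Vim, had the same order of groups. It was 1486 to 1529 CPM in control, 1292 to 1311 with doxycycline, 1196 to 1213 with dTAG-13 and 1013 to 1048 with both. Its part in the Hk2 result was not tested. In bulk RNA, fewer cells that transcribe a gene and less of its RNA per cell cannot be told apart.

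Both genes fell with dTAG-13 against control, where 62.1% of the 12910 genes tested were called in either direction. Hk1 fell by 0.46 on the log2 scale (SE 0.0289, edgeR adjusted p 1.87e-17), a 1.38-fold lower level. Hk2 fell by 0.69 (SE 0.0281, edgeR adjusted p 1.86e-23), a 1.61-fold lower level. With Adpgk, 3 of the 4 members tested were called here, 1 higher and 2 lower. When dTAG-13 was added to doxycycline, 64.1% of genes were called and 2 of the 4 members. There Hk1 fell by 0.73 (SE 0.0294, edgeR adjusted p 1.49e-23) and Hk2 by 0.88 (SE 0.0293, edgeR adjusted p 2.96e-26), which is 1.66-fold and 1.84-fold lower.

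The decrease of both hexokinases was larger in cells that had doxycycline. The interaction was -0.27 for Hk1 (SE 0.0412, edgeR adjusted p 4.25e-06) and -0.19 for Hk2 (SE 0.0406, edgeR adjusted p 0.000395). After a correction for length and GC content it was -0.235 and -0.134. Among genes of like transcript length, 10.97% lay below Hk1 (median -0.029) and 21.05% below Hk2 (median -0.052). Over all genes 22.9% were called for the interaction, and of the 4 members tested 3 were, all negative.

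With dTAG-13 against control the median log2 change was 0.063 among genes of the length of Adpgk and lower among longer genes, and Hk1 and Hk2 have long ones (4278 and 5513 bases for the longest coding transcript). The values of genes of like length are therefore given beside them. The 1468 genes of 3809 to 4653 bases were the eighth of genes by transcript length that holds Hk1. Their median log2 change with dTAG-13 was -0.08, and 11.5% of them lay below Hk1. In the eighth with Hk2, 1468 genes of 4654 to 6239 bases, the median was -0.15 and 3.34% lay below Hk2. In cells with doxycycline the medians were -0.14 and -0.22, and 1.43% and 0.613% of those genes lay below Hk1 and Hk2. Both lay below the lower quartile of genes of their length in either setting. After a correction for length and GC content the dTAG-13 differences were -0.242 for Hk1 and -0.438 for Hk2 against control, and -0.476 and -0.572 among doxycycline cells, all still called. Without the library that stood furthest apart, the last 2 uncorrected values were -0.742 and -0.872.

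**Figure D2:**
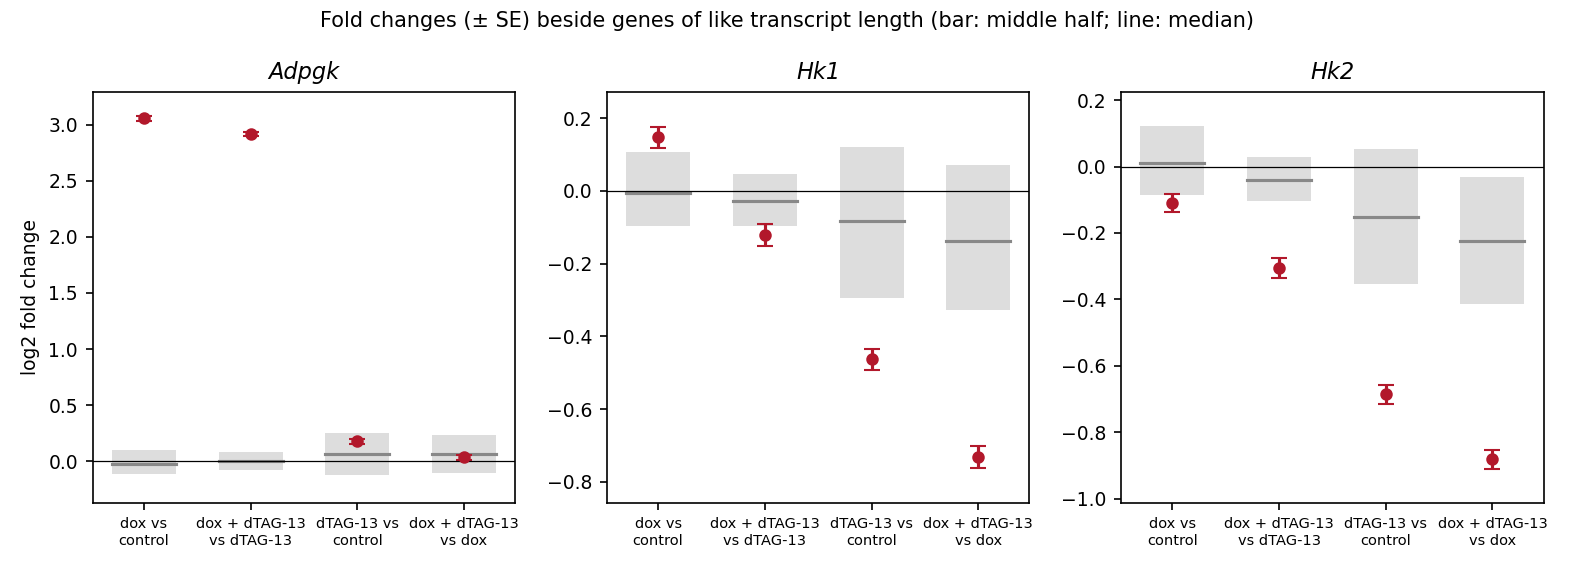
Log2 fold changes of Adpgk, Hk1 and Hk2 (red points, ± SE) in the 4 comparisons of groups, with the interquartile range (grey bar) and median (grey line) of genes in the same eighth of transcript length; each panel has its own axis. Adpgk stands near 3 in the comparisons for doxycycline, and Hk1 and Hk2 lie below the grey bars in the comparisons for dTAG-13, at -0.46 and -0.69 against control.

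Without dTAG-13, the doxycycline differences of Hk1 and Hk2 were smaller than those for dTAG-13 and opposite to each other in direction. Of all genes 33.5% were called for doxycycline against control, and of the 4 members tested 3 were, 2 higher and 1 lower. Hk1 rose by 0.15 (SE 0.0282, edgeR adjusted p 6.20e-05) and Hk2 fell by 0.11 (SE 0.0273, edgeR adjusted p 0.00147). Both lay outside the interquartile range of genes of their length, -0.096 to 0.108 for Hk1 and -0.084 to 0.12 for Hk2. In cells with dTAG-13, 20.4% of genes were called for doxycycline and 3 of the 4 members, 1 higher and 2 lower. Here Hk2 fell by 0.30 (SE 0.0300, edgeR adjusted p 1.40e-10). Among genes of like length, 4.63% lay below Hk2 and 19.2% below Hk1. Hk1 fell by 0.12 (SE 0.0300, edgeR adjusted p 0.00256), a call that rests on doxycycline plus dTAG-13 replicate 1: without it the value was -0.082 at an edgeR adjusted p of 0.0627.

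The balance between the 2 hexokinases was read within each library, which needs no scaling between libraries. It was not corrected for length and GC content, in which Hk1 (4278 bases, 56.4% GC) and Hk2 (5513 bases, 51.9% GC) differ. For each Hk2 read there were 1.09, 1.08 and 1.11 Hk1 reads in control. The doxycycline libraries had 1.27, 1.34 and 1.32 and the dTAG-13 libraries 1.26, 1.32 and 1.24. With both compounds there were 1.37, 1.48 and 1.48. The control libraries were lowest and the libraries with both compounds highest, and those with 1 compound overlapped each other in between. Per kilobase, Hk1 exceeded Hk2 by 0.49 ± 0.021 on the log2 scale in control and by 0.90 ± 0.065 with both compounds (mean ± SD, n = 3).

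Summed over the 5 genes on the scale of CPM per kilobase, Adpgk made up 46.5 ± 0.665% of the level in control, Hk1 31.2 ± 0.194% and Hk2 22.1 ± 0.455% (SD, n = 3). With doxycycline the Adpgk share was 87.5 ± 0.300%, with dTAG-13 58.9 ± 0.385% and with both 92.5 ± 0.332%. The Hk2 share in the libraries with both compounds was 2.60 ± 0.0688%. The summed level of Hk1 and Hk2 was 74.0 ± 0.999 CPM per kb in control, 76.4 ± 0.945 with doxycycline, 50.6 ± 0.485 with dTAG-13 and 44.3 ± 1.73 with both. These shares are descriptions with no test. The transcribed length of the construct is unknown, so the Adpgk share with doxycycline depends on the length used, and on CPM without length scaling it was 31.1% in control and 78.7% with doxycycline.

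**Figure D3:**
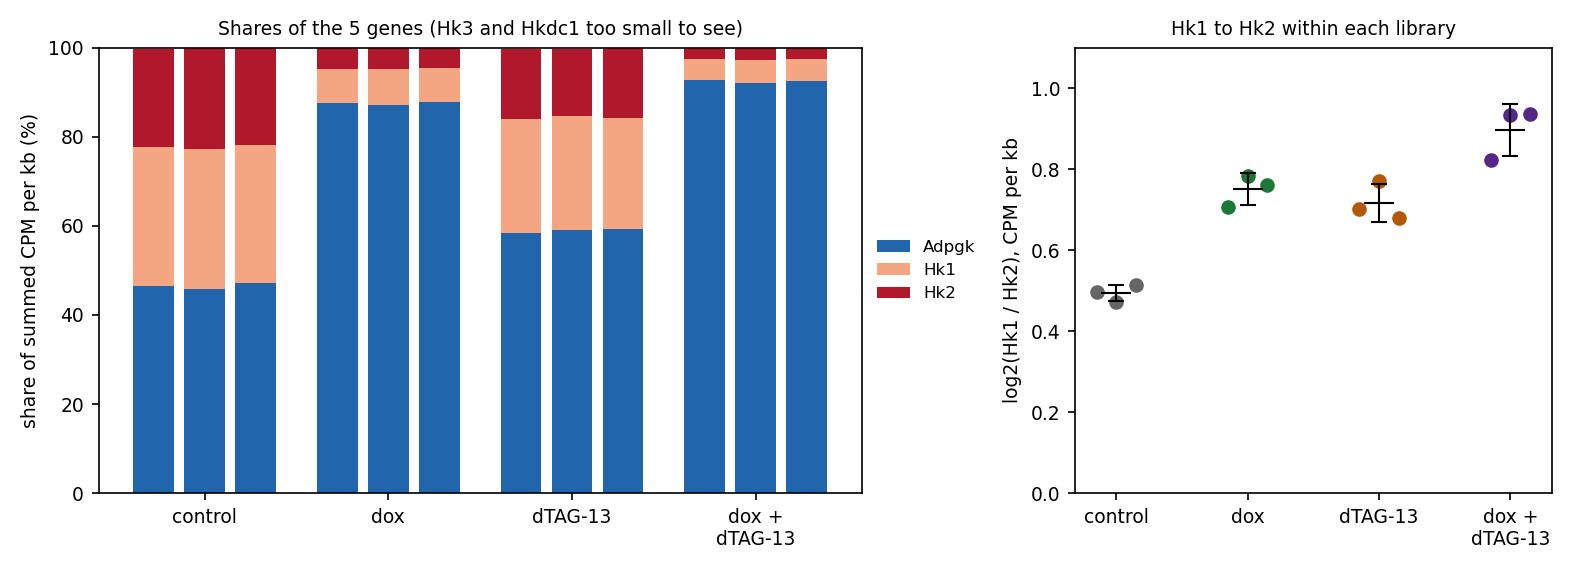
Left, share of Adpgk, Hk1 and Hk2 in the summed CPM per kb of the 5 genes (percent) in each of the 12 libraries; right, log2 ratio of Hk1 to Hk2 in CPM per kb, points for libraries and black marks for mean ± SD over 3. Adpgk goes from 46.5% in control to 92.5% with both compounds, and the log2 ratio of Hk1 to Hk2 from 0.49 to 0.90.

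The promoters of the hexokinases that fell together are shown for their sequence context, with 250 bases before and 50 after each RefSeq start in GRCm38.p6, minus strand of the genome, written in the direction of transcription. Capitals mark ACGTG on either strand, 1 form of the core that hypoxia-inducible factor binds (on the strand not shown it reads CACGT here). Other forms of that core, such as GCGTG, were neither marked nor counted. Hk1 has 2 annotated starts, and gene-level counts do not tell them apart.
Hk2, chr6:82774405-82774704: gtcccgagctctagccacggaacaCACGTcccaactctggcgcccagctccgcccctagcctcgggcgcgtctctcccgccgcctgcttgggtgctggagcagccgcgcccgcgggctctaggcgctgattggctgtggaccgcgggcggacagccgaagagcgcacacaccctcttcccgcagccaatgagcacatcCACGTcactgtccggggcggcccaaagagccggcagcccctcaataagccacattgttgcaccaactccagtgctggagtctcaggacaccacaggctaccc
Hk1, inner start, chr10:62340372-62340671: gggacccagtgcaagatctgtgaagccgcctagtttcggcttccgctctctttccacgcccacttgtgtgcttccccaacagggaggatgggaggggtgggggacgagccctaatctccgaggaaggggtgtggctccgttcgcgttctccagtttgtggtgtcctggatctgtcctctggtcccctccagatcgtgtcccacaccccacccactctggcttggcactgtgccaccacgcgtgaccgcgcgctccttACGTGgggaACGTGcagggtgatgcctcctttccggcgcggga
Hk1, outer start, chr10:62379859-62380158: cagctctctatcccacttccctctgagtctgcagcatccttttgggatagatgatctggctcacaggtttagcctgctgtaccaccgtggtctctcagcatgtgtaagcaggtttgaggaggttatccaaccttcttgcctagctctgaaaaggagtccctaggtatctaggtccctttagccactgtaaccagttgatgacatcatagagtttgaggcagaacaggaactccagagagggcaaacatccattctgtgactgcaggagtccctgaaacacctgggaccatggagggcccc
The Hk2 window held 2 matches and the window of the inner Hk1 start 2, while the outer Hk1 window held none. The Adpgk and Hk3 windows, not shown, had 1 match each and the Hkdc1 window none. At least 1 match was held by 19.6% of all 32851 RefSeq promoter windows. The longer palindrome CACGTG, which contains ACGTG and is bound by Myc and by carbohydrate-response factors, was in none of the 6 windows of these genes and in 7.2% of all windows. A match is a string of letters and not a measured site.

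Hkdc1 and Hk3 were near the limit of detection. Hkdc1 (Entrez 216019, minus strand of chromosome 10, 62383137 to 62423711), which lies 3216 bases from Hk1, had 34, 17 and 10 reads in control. It had 28, 25 and 14 with doxycycline, 34, 40 and 17 with dTAG-13 and 21, 18 and 25 with both. The groups overlapped throughout, at 0.656 ± 0.368, 0.741 ± 0.226, 0.988 ± 0.362 and 0.814 ± 0.115 CPM in the same order (SD, n = 3). Hkdc1 was tested, and no comparison called it. The largest value was for dTAG-13 against control, at 0.57 (SE 0.332, edgeR adjusted p 0.133). That value was 1.11 without control replicate 1 (edgeR adjusted p 0.0126) and 0.82 without dTAG-13 replicate 3 (edgeR adjusted p 0.0376), so 1 library of few reads decides whether it is called.

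Hk3 (Entrez 212032, minus strand of chromosome 13, 55005985 to 55021475) had 6 reads in the 3 control libraries together, 8 with doxycycline, 5 with dTAG-13 and 2 with both. No library held more than 4. In control this is 0.0638 CPM on the unscaled library totals, with an exact Poisson 95% interval of 0.0234 to 0.139, and with both compounds 0.0254 (0.00308 to 0.0918), intervals that cover counting error only. The intervals of the 4 groups overlap, so no difference was detectable at this depth. Hk3 did not pass the filter on low counts and was not tested. It overlaps the coding gene Unc5a (298 to 560 reads) in the annotation, and without a known strand setting reads of the 2 genes cannot be told apart. Hk1 overlaps the non-coding Hk1os, which had 13 to 32 reads.

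The expression pattern of each member over the 12 libraries was set beside that of the 11557 genes whose mean was 1 CPM or more, by Pearson r of log2(CPM + 0.1), as a description across libraries that share 4 cultures. Closest to Adpgk were Nek7 (r = 0.9967), Gbp3 (0.9965) and Samd5 (0.9946). Nek7 went from 219 CPM in control to 295.9 with doxycycline and 298.8 with both compounds, and Samd5 from 0.0237 to 6.42 and 5.41. Closest to Hk1 were Slmap (0.9965), Cplane1 (0.9942) and Kdm5c (0.9916). Closest to Hk2 were Slc41a1 (0.9970), Lpcat3 (0.9955) and Clstn1 (0.9953). The size of the differences was not part of the measure. Slc41a1 went from 106 to 68.4 CPM between control and both compounds, where Hk2 went from 169.5 to 85.3.

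Other genes that handle glucose were read from 5 lists. Of the 11 glucose transporters 4 were tested, of 10 other sugar kinases 9, of 17 genes that make, use or regulate glucose-6-phosphate 16, of 10 genes of lower glycolysis 8, and of 8 genes for hexokinase docking and regulation 7. With dTAG-13 against control 30.0% of all genes were called higher and 32.1% lower (5256 and 3115 genes when scaled by library totals alone), and the median of all genes was 0.019. The glucose-6-phosphate list had 2 called higher and 10 lower with a median of -0.09. Its extremes were Pfkfb1, which sets the level of an activator of phosphofructokinase (0.47, edgeR adjusted p 8.04e-05), and H6pd, the hexose phosphate dehydrogenase of the endoplasmic reticulum (-0.34, edgeR adjusted p 7.28e-09). Corrected for length and GC content, H6pd was at -0.065 and no longer called. Docking and regulation had 2 higher and 5 lower with a median of -0.19, from Txnip, an inhibitor of glucose uptake (0.23), to Mlxip, a glucose-sensing transcription factor (-0.62, edgeR adjusted p 3.01e-17). Corrected for length and GC content Mlxip was at -0.262 and still called.

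In the same comparison, among the transporters 1 was higher, Slc2a6 (0.52, edgeR adjusted p 8.47e-06), and 1 lower, Slc2a3 (-0.42, edgeR adjusted p 0.000876), with a median of -0.037. The sugar kinases had 3 higher and 3 lower (median 0.23), led by Nagk, which phosphorylates N-acetylglucosamine (0.51), and Xylb, the xylulokinase (-0.42). Lower glycolysis had 4 higher and 3 lower (median 0.010), led by Pgk1 (0.36, and 0.231 when corrected for length and GC content) and Pkm (-0.28), the kinases that make ATP in that pathway.

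When dTAG-13 was added to doxycycline, 30.7% of all genes were called higher and 33.4% lower, with a median of 0.0032. The glucose-6-phosphate list then had 1 higher and 10 lower with a median of -0.29. Pfkfb1 was the 1 higher (0.29, edgeR adjusted p 0.00868), a call lost after the length and GC correction (0.127) and without doxycycline replicate 2 (0.242). Gys1, the glycogen synthase of most tissues, was lowest (-0.71, edgeR adjusted p 8.98e-21), from 192.5 ± 3.21 to 117.7 ± 4.80 CPM (SD, n = 3). Lower glycolysis had 2 higher and 5 lower (median -0.14), from Pgk1 (0.27, and 0.112 when corrected) to Pkm (-0.31). The transporters had none higher and 2 lower, led by Slc2a3 (-0.37), whose call was lost after the length and GC correction (-0.25). Sugar kinases had 2 higher and 3 lower (median 0.21), from Galk1, the galactokinase (0.35), to Xylb (-0.43). Docking and regulation had 2 higher and 4 lower (median -0.087), again from Txnip (0.23) to Mlxip (-0.62, and -0.188 when corrected). Without the correction, Hk2 at -0.88 was lower than every tested gene of the 5 lists, and Hk1 at -0.73 differed from Gys1 by less than the SE of either. After the correction Hk1 was at -0.476 and Gys1 at -0.541.

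**Figure D4:**
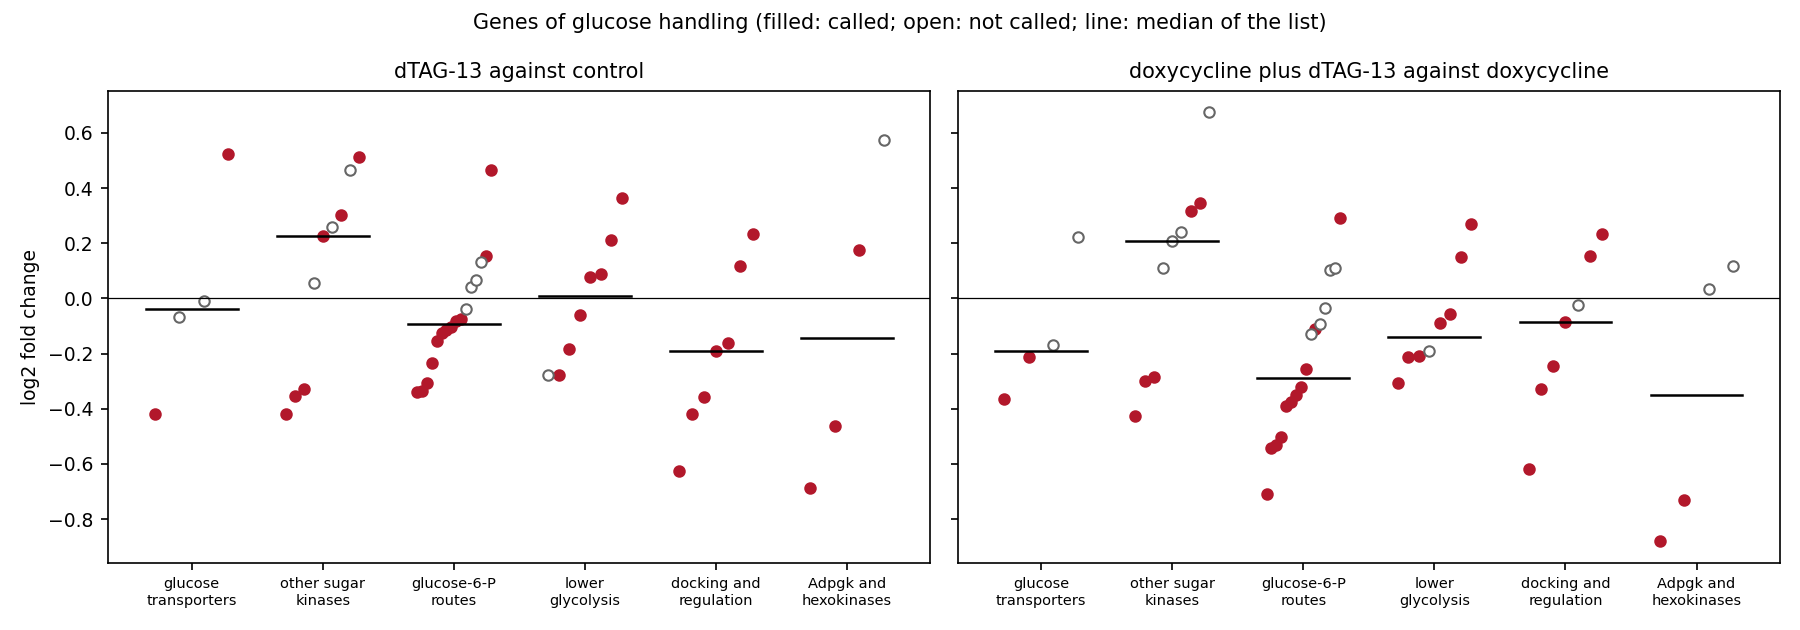
Log2 fold changes of the tested genes of 5 lists and of the members, for dTAG-13 against control (left) and doxycycline plus dTAG-13 against doxycycline (right); filled points were called at an edgeR adjusted p under 0.05, open points were not, and lines are list medians. In the glucose-6-phosphate list 10 of 16 genes were called lower in either panel, and Hk2 is the lowest point of either panel.

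For doxycycline against control, 14.8% of all genes were called higher and 18.7% lower (2546 and 1607 genes when scaled by library totals alone). The glucose-6-phosphate list had 6 higher and 1 lower (median 0.075, against -0.010 for all genes), from Pfkfb1 (0.28) to Tigar, a bisphosphatase that slows glycolysis (-0.16). The Pfkfb1 call was lost with DESeq2 and without control replicate 1 or 2 or doxycycline replicate 1 or 3 (0.249 to 0.275). Among the transporters Slc2a8 was higher (0.29, edgeR adjusted p 0.0454) and Slc2a1, the main transporter of proliferating cells, lower (-0.14, edgeR adjusted p 2.96e-05). The Slc2a8 call was lost with DESeq2 (0.283) and on leaving out any 1 of 7 libraries (0.165 to 0.311): replicates 1 and 2 of control, all 3 of doxycycline, replicate 3 of dTAG-13 or replicate 1 of the cells with both compounds. Galk2 was the 1 sugar kinase called (0.17), a call lost with DESeq2 (0.169), after the length and GC correction (0.146), and without control replicate 1 (0.119) or doxycycline replicate 3 (0.14). Aldoa was the 1 gene of lower glycolysis called (0.069, and 0.105 when scaled by library totals alone). Docking and regulation had 1 higher and 3 lower, from Hif1a (0.080) to Txnip (-0.42, edgeR adjusted p 2.23e-15). The Hif1a call was lost after the length and GC correction (0.025) and without control replicate 1 (0.06) or doxycycline replicate 1 (0.077).

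In cells with dTAG-13, 10.7% of all genes were called higher with doxycycline and 9.64% lower (926 and 2132 genes when scaled by library totals alone). The glucose-6-phosphate list had 1 higher and 6 lower (median -0.097, against -0.00077 for all genes). Pfkp, the platelet-type phosphofructokinase, was lowest (-0.39, edgeR adjusted p 1.29e-12), from 90.4 ± 0.890 to 68.7 ± 1.48 CPM (SD, n = 3). Pfkm was the 1 higher (0.12), and the call on it did not hold when scaled by library totals alone (0.082) or with dTAG-13 replicate 3 (0.088), or replicate 1 (0.108) or 3 (0.089) of the cells with both compounds, left out. Lower glycolysis had none higher and 4 lower, led by Tpi1 (-0.14). The transporters had none higher and 2 lower, led by Slc2a1 (-0.35, edgeR adjusted p 2.67e-13), from 392.3 ± 1.55 to 308.2 ± 9.32 CPM. Galk1 was the 1 sugar kinase called (0.13), and Txnip the 1 gene of docking and regulation (-0.42).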

How the data were processed

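RNA-seq of 12 libraries in 4 groups was analysed from 1 table of raw read counts per Entrez gene that the authors deposited without normalization. Per the submitters' processing notes, bcl2fastq 2.17, featureCounts and the build mm10 (GRCm38) were used, and per the file headers the alignment was made with Subread. Not given in the sources used here were the annotation, the strand setting and the treatment of multi-mapping reads, so reads could be shared between the similar hexokinase genes. Symbols and positions came from RefSeq GRCm38.p6 (25275 IDs, with 18 more from GENCODE M21).

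edgeR 4.0.16 in R 4.3.3 was fitted to all 12 libraries with 1 mean per group, after filterByExpr (12910 genes kept) and TMM scaling (factors 0.9647 to 1.0349). Contrasts were tested by quasi-likelihood F (robust, two-sided) with Benjamini-Hochberg adjustment over all genes tested, and calls were made at adjusted p under 0.05. SEs were derived from the fold change and F. CPM is on the TMM-scaled library size, and transcript length and GC content are those of the longest coding GENCODE M21 transcript (11745 of the tested genes). Length groups are eighths of those genes.

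The members and lists were chosen with earlier results of these data known. The 5 members were always named. From each list the called gene with the highest and the one with the lowest fold change in each comparison were named, among genes whose mean was 1 CPM or more. The alternatives were RLE size factors, library size only, DESeq2 1.42.0, no filter, a filter of 1 CPM in 3 libraries, a replicate block, a fit to only the groups compared, a length and GC correction by splines with 5 degrees of freedom, and leaving out each library. The code was tested on simulated data.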

Additional observations from a re-analysis of the deposited data

Results flagged for a closer look

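The dTAG-13 difference was not the same with and without doxycycline for several genes of the report, by the edgeR interaction test with a Benjamini-Hochberg adjusted p under 0.05. Among the members this was so for Adpgk (-0.14), Hk1 (-0.27) and Hk2 (-0.19), on the log2 scale. For Adpgk the linear scale reads otherwise. There dTAG-13 went with 20.8 CPM more (SE 2.81) on a base of 160.5 CPM without doxycycline. With doxycycline it went with 31.6 CPM more (SE 14.7) on a base of 1338 CPM. The same number of CPM is a smaller log2 difference on a higher base, and no interaction was tested on the linear scale. Among the genes named from the lists it was so for the transporter Slc2a1 (-0.20), for Gys1 (-0.37), Pfkp (-0.42) and H6pd (-0.19) of the glucose-6-phosphate list, for Aldoa (-0.18) and Tpi1 (-0.15) of lower glycolysis, and for Galk1 (0.12). These genes were named for their fold changes in the comparisons that make up the interaction. Over the whole lists, the interaction was called positive and negative for 0 and 1 transporters, 1 and 0 sugar kinases, 0 and 8 genes of the glucose-6-phosphate list, 0 and 3 of lower glycolysis, and 2 and 0 of docking and regulation. Over all genes, 13.2% were called with a positive interaction and 9.64% with a negative one, and when scaled by library totals alone 818 genes were positive and 2424 negative, so the side on which more genes fall depends on the scaling. After the length and GC correction 1993 were positive and 878 negative. With that correction the values of Adpgk, Hk1 and Hk2 were -0.127, -0.235 and -0.134, all still called. Each group is 1 culture, so a difference between cultures and one between treatments cannot be told apart.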

How the results depend on the processing

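Replicate numbers are shared by the groups but nothing in the labels pairs them. Same-numbered libraries of different groups had correlations of their deviations from -0.021 to 0.080, and 4 of 12 libraries were on average closest to their own number. With the replicate number as a block, 4172, 7938, 8205, 2490 and 2810 genes were called in place of 4331, 8021, 8273, 2630 and 2950 (doxycycline, dTAG-13, dTAG-13 added to doxycycline, doxycycline added to dTAG-13, interaction). The block changed no call on a member.

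In the settings run, Adpgk, Hk1 and Hk2 kept the direction of every difference, and 386 of 394 member values kept direction and side of the threshold. Adpgk for dTAG-13 among doxycycline cells was called with library size only (0.055) and with only the groups compared (0.045), and ran from 0.006 to 0.042 without single libraries, with no call. Without single libraries, Hk1 for doxycycline among dTAG-13 cells ran from -0.153 to -0.082. Hkdc1, which rests on 10 to 40 reads a library, ran from -0.124 to 0.701 for doxycycline, from 0.289 to 1.114 for dTAG-13 and from -0.106 to 0.277 for dTAG-13 among doxycycline cells. Its sign turned without control replicate 3 (-0.124), doxycycline replicate 1 (-0.002) and doxycycline replicate 3 (-0.106), and the cause was not tested beyond the few reads. DESeq2 gave no adjusted p for Hkdc1 in 2 comparisons. All 99 counts of called genes stayed within 1.5 times the reported count.

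Without length scaling the Adpgk share was 31.1%, 78.7%, 42.9% and 86.7% (control, doxycycline, dTAG-13, both), the Hk1 share 35.9%, 12.1%, 31.8% and 7.82%, the Hk2 share 32.8%, 9.24%, 25.0% and 5.40%, and the Hkdc1 share with both compounds 0.0515%.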
